A study of Rattus norvegicus with 6 samples.

Results

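The 10 genes described here mark hepatic stellate cells, myofibroblasts and smooth muscle: the filament genes Vim and Des, the contractile genes Tagln, Actg2, Myl9, Tpm1 and Tpm2, and Cygb, Reln and Sparcl1. Probes were matched by gene symbol in the platform annotation, and the genes themselves were chosen with earlier results of these data known. Of the 10 genes, 9 had a probe, 1 probe each, among 13337 named genes on the array. Tpm2 had no probe under that symbol and is not analysed here. Gene expression was measured on Illumina bead arrays, 1 per rat, in non-tumor liver tissue of male Wistar rats. All 6 rats had been injected intraperitoneally once a week for 18 weeks with diethylnitrosamine (DEN, 50 mg/kg), a liver carcinogen that also causes fibrosis in rodents. In weeks 13 to 18, 3 of them drank 0.02% EGCG (epigallocatechin gallate, the chief green tea catechin) in their water, 5 days a week, and 3 drank plain water. All were killed in week 19, 1 week after DEN ended. No rat without DEN was analysed here, so each value compares DEN-injected rats with one another. Whole tissue was used, with no sorting of cells.

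Stellate cells lie between hepatocytes and sinusoidal endothelium and store vitamin A in healthy liver. After repeated injury they become myofibroblasts, which lay down collagen, contract, and take up filaments and contractile proteins of smooth muscle. Vimentin and desmin are intermediate filament proteins, transgelin and the tropomyosins bind actin filaments, and the myosin light chain Myl9 regulates the motor. Most of these genes are shared with other cells: Vim is also transcribed in endothelium and leukocytes, and Tagln, Actg2, Myl9 and the tropomyosins in vessel walls.

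Vim was lower in the livers of EGCG rats than in those of water rats, and it was the only 1 of the 9 measured genes past the threshold (limma, adjusted p under 0.05 over 13514 probes). For comparison, 0.318% of all probes tested were lower past that threshold, 43 of 13514, and 23 (0.17%) were higher. The other 8 genes also had a lower mean with EGCG, without passing. All 9 had a difference below 0, as did 48.7% of all probes. The median difference of the 9 genes was -0.59 on the log2 scale, a 1.50-fold lower level, against 0.0045 for all probes. In 6 of the 9 genes every EGCG rat lay below every water rat, which held for 7.46% of all probes. At an unadjusted p under 0.05, 5 of the 9 were lower, against 5.27% of all probes. In whole tissue, fewer cells of a type and less RNA per cell cannot be told apart.

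**Figure D1:**
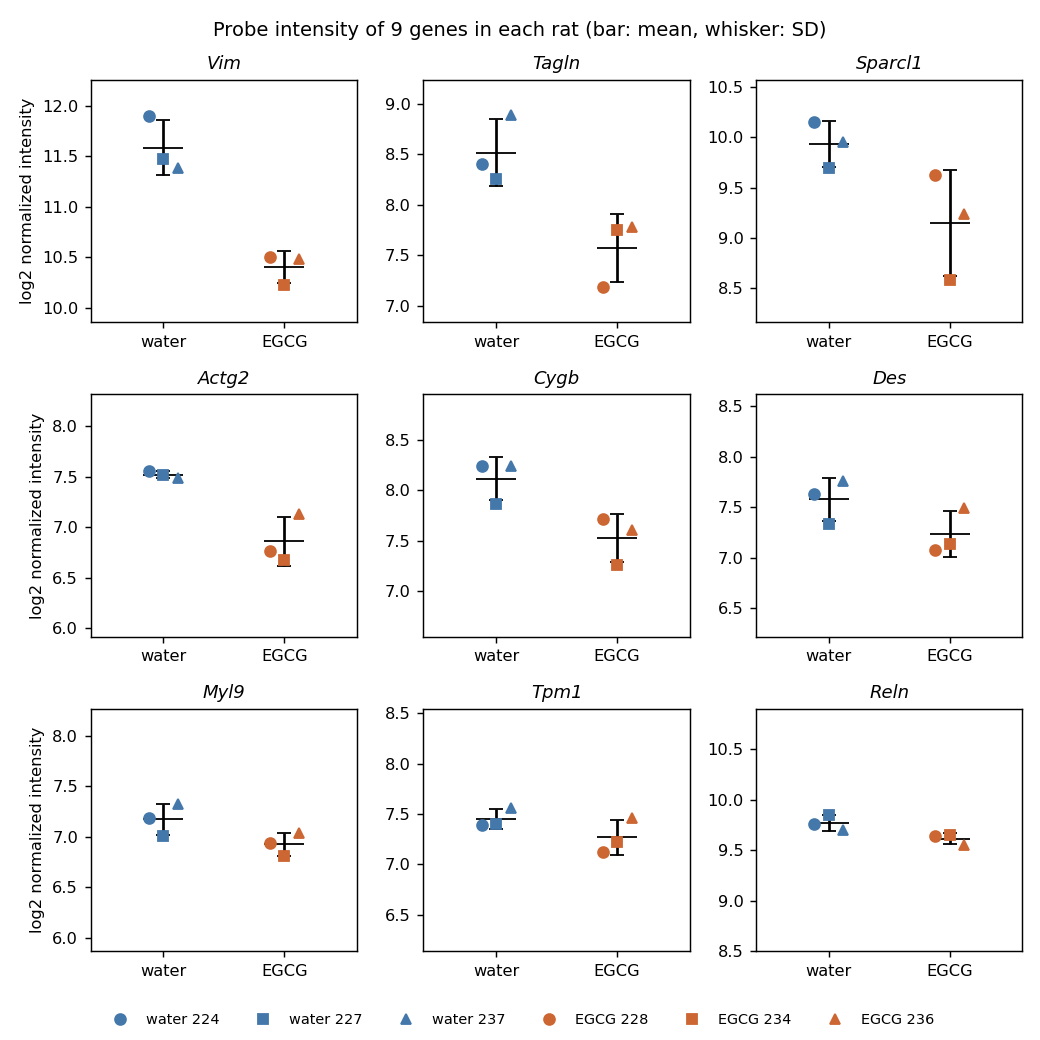
Normalized log2 probe intensity (y axis, each panel spanning the same number of log2 units) of the 9 genes in the 3 water rats and 3 EGCG rats (x axis), with the group mean (bar) and SD (whisker). Every EGCG rat lies below every water rat for Vim, Tagln, Sparcl1, Actg2, Cygb and Reln, while Des, Myl9 and Tpm1 overlap.

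Non-normalized median intensity ran from 112 to 120 per array. The mean ran from 382 in water_237 to 531 in water_224, so that the arrays of the water group were the dimmest and the brightest. The liver label was checked against Alb, the serum albumin of hepatocytes, which stood at log2 14.98 ± 0.29 with water and 15.04 ± 0.25 with EGCG (SD, n = 3 each). Among defining stellate cell genes, Lrat and Pdgfrb had no probe under those symbols, and neither did the myofibroblast actin Acta2. Gfap, a glial filament that rodent stellate cells share, stood at log2 6.50 ± 0.06 with water and 6.59 ± 0.07 with EGCG. Ngfr, the low-affinity neurotrophin receptor of these cells, stood at 6.66 ± 0.07 and 6.73 ± 0.07. Both lay close to the log2 6.39 under which probes were left out as dim. Of the defining genes named here, only Gfap and Ngfr could therefore be read, and both were dim. A wider list of stellate cell genes is given below, with a median difference of -0.12 over 22 tested.

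Vimentin forms the main intermediate filament of mesenchymal cells. The Vim probe read 4656, 3166 and 2021 in water_224, water_227 and water_237, and 1500, 1265 and 1374 in EGCG_228, EGCG_234 and EGCG_236 (non-normalized intensity). After normalization these values were log2 11.90, 11.48 and 11.38 with water and 10.51, 10.22 and 10.49 with EGCG. The groups did not overlap: the brightest EGCG rat lay 0.88 below the dimmest water rat, more than the SD within either group (0.27 with water and 0.16 with EGCG, n = 3 each). Vim fell 2.26-fold (log2 difference -1.18, SE 0.18, 95% interval -1.58 to -0.78, limma adjusted p = 0.0231), a decrease that ranked 40 among 13514 probes. The call was lost without EGCG_228 (adjusted p = 0.0719), EGCG_234 (0.132) or water_227 (0.0776) and with median scaling between arrays (0.131), where the difference was -1.17.

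The Vim promoter is shown because Vim was the gene that passed, and the Reln promoter because Reln had the smallest difference. Each is 300 bases of rat build GRCr8 from RefSeq, 250 before to 50 after the gene's start, read 5′ to 3′ on the plus strand: Vim at chr17:81577011-81577310 and Reln at chr4:13628318-13628617. Capitals mark the letters TATAAA.
Vim: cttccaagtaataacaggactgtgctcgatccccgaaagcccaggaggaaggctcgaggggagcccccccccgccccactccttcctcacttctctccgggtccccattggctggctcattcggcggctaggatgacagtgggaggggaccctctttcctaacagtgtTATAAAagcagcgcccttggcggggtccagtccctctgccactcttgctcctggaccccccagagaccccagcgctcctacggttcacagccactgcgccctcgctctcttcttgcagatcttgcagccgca
Reln: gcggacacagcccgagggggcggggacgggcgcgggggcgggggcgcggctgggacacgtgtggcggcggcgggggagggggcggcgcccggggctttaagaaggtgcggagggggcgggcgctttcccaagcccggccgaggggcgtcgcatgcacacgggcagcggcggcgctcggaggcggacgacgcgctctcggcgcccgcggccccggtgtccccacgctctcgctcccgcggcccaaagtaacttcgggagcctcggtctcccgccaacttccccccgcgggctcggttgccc
The Vim window holds TATAAA once, on the gene's strand, with its first base 82 bases before the start. The Reln window holds none and is 79% G and C, against 62% for Vim and a median of 51.7% over all 33469 promoters. TATAAA was searched on both strands, and 14.2% of all promoters hold it. The CArG box, the palindromic element that serum response factor binds in muscle genes, was searched too. None of the 7 promoters given for these genes (Vim, Des, Actg2, Tpm1, Tpm2, Reln and Sparcl1) holds a CArG box within these 300 bases, and 1.64% of all promoters do, which says nothing about elements outside the window. Promoters of Tagln, Myl9 and Cygb were not used here.

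Desmin is the intermediate filament protein of muscle and a classical marker of rodent stellate cells. Des stood at log2 7.63, 7.34 and 7.76 in water_224, water_227 and water_237, and at 7.08, 7.14 and 7.49 in EGCG_228, EGCG_234 and EGCG_236. EGCG_236 lay above water_227, so that the groups overlapped by 0.15. The difference of -0.34 did not pass (95% interval -0.69 to 0.0032, limma adjusted p = 0.497).

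Among the contractile genes, Tagln had the largest difference. It encodes transgelin, an actin-binding protein of smooth muscle, and its probe read log2 8.41, 8.26 and 8.89 in water_224, water_227 and water_237. In EGCG_228, EGCG_234 and EGCG_236 the values were 7.19, 7.75 and 7.78. The groups lay 0.48 apart, with EGCG_228 the lowest rat and water_237 the highest. Its level was 1.93-fold lower with EGCG (log2 difference -0.95, SE 0.20, 95% interval -1.40 to -0.49) and did not pass (limma adjusted p = 0.0917). Tagln passed with median scaling (adjusted p = 0.0499) and with array weights (0.0417).

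Actg2 encodes the gamma actin of enteric smooth muscle, and other actins are close to it in sequence, so that its probe may read them as well. Its 3 water rats were nearly equal, at log2 7.55, 7.52 and 7.48 in water_224, water_227 and water_237. With EGCG the values were 6.76 in EGCG_228, 6.68 in EGCG_234 and 7.13 in EGCG_236. The groups lay 0.35 apart, and the EGCG rats spread more (SD 0.24) than the water rats (SD 0.035). The difference was -0.66 (SE 0.14, 95% interval -0.96 to -0.36, limma adjusted p = 0.0836), short of the threshold. Without EGCG_236 it passed (-0.81, adjusted p = 0.0150), as it did with array weights (-0.73, 0.0182).

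Myl9, the regulatory light chain of smooth muscle myosin, stood at log2 7.18, 7.01 and 7.32 in water_224, water_227 and water_237. The EGCG values were 6.93 in EGCG_228, 6.81 in EGCG_234 and 7.03 in EGCG_236, which lay just above the lowest water rat, an overlap of 0.024. Its difference of -0.25 did not pass (95% interval -0.52 to 0.026, limma adjusted p = 0.546). Tpm1, a tropomyosin that lies along actin filaments in muscle and non-muscle cells, stood at 7.39, 7.40 and 7.56 with water. In EGCG_228, EGCG_234 and EGCG_236 it stood at 7.12, 7.23 and 7.46. EGCG_236 lay above both water_224 and water_227, and the difference of -0.18 did not pass (95% interval -0.47 to 0.11, limma adjusted p = 0.713). Tpm1 makes many splice forms, and a single probe does not measure them all.

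Cytoglobin is a heme protein of stellate cells and other fibroblast-like cells. The Cygb probe read log2 8.24, 7.87 and 8.24 in water_224, water_227 and water_237, and 7.72, 7.26 and 7.60 in EGCG_228, EGCG_234 and EGCG_236. The groups lay 0.15 apart, less than the SD within either (0.21 with water, 0.24 with EGCG). The difference of -0.59 (SE 0.16, 95% interval -0.95 to -0.23), a 1.50-fold lower level, did not pass (limma adjusted p = 0.193).

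Reelin is a large secreted glycoprotein known from brain development, and in liver it comes from stellate cells and lymphatic endothelium. Reln stood at log2 9.76, 9.85 and 9.70 in water_224, water_227 and water_237, and at 9.64, 9.65 and 9.55 in EGCG_228, EGCG_234 and EGCG_236. The groups did not overlap, but lay only 0.049 apart. Its difference of -0.15 (SE 0.14, limma adjusted p = 0.796) was the smallest of the 9. The 95% interval, -0.47 to 0.16, leaves out a decrease of the size measured for Vim.

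Sparcl1 encodes hevin, a secreted matrix-associated glycoprotein related to SPARC and made by vessel and mesenchymal cells. Its probe read log2 10.15, 9.70 and 9.95 in water_224, water_227 and water_237. The EGCG rats were far apart, at 9.63 in EGCG_228, 8.58 in EGCG_234 and 9.24 in EGCG_236, with an SD of 0.53 against 0.23 with water. The groups lay 0.068 apart, and the difference of -0.78 (SE 0.24, 95% interval -1.32 to -0.25) did not pass (limma adjusted p = 0.250). It was -0.50 without EGCG_234, the rat in which Sparcl1 was lowest.

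**Figure D2:**
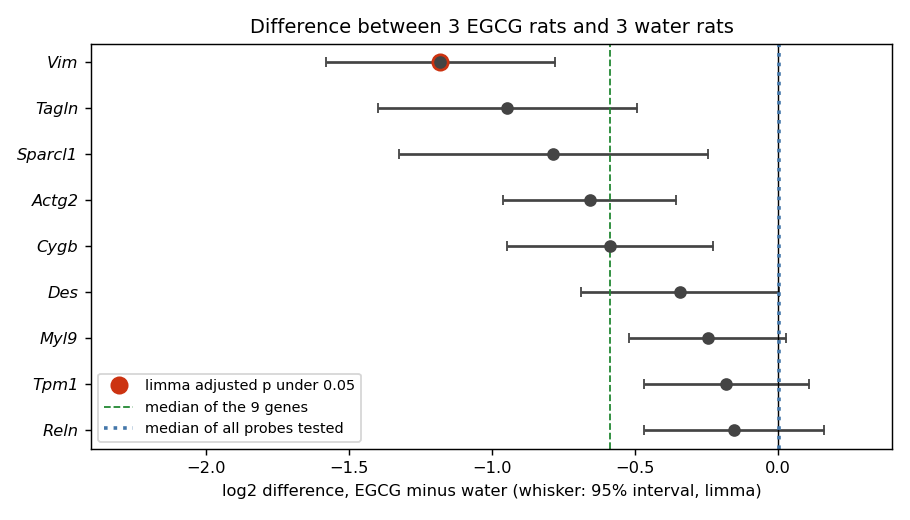
Log2 difference of each of the 9 genes between 3 EGCG rats and 3 water rats (x axis; points, limma estimates; whiskers, 95% intervals), with the genes on the y axis. Vim at -1.18 passed the threshold; the intervals of Tagln, Sparcl1, Actg2 and Cygb also leave out 0 before adjustment, and those of Des, Myl9, Tpm1 and Reln include it.

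The 9 genes were lower on average in each of the 3 EGCG rats. Relative to the mean of the water rats, the 9 genes averaged -0.56 in EGCG_228, -0.70 in EGCG_234 and -0.43 in EGCG_236, and 0.064, -0.14 and 0.072 in water_224, water_227 and water_237. Without Vim, the averages of EGCG_228, EGCG_234 and EGCG_236 were -0.50, -0.62 and -0.34. The median over all probes tested was 0.0037 in EGCG_228, 0.0019 in EGCG_234 and 0.0082 in EGCG_236. In EGCG_228 and EGCG_234 all 9 genes were below the lowest water rat. In EGCG_236 this held for 6, and Des, Myl9 and Tpm1 were the exceptions. The share of all probes below the lowest water rat was not computed for single rats, so these counts cannot be read as a result about the genes. The 7.46% of all probes given above is for all 3 EGCG rats together. For a single rat the share can only be the same or larger. The order of the rats differed between genes: EGCG_234 was lowest of its group for 5 genes, EGCG_228 for 3 and EGCG_236 for 1, Reln. Among water rats, water_227 was lowest for 5 genes, water_237 for 3 and water_224 for 1.

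**Figure D3:**
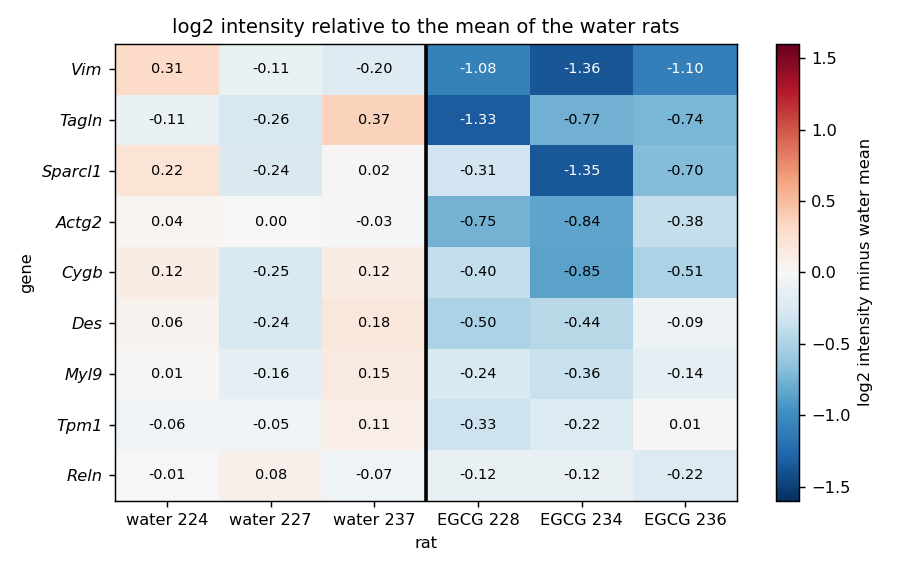
Normalized log2 intensity of each gene (rows) in each rat (columns) minus the mean of the 3 water rats, as colour and number. Vim lies at -1.08, -1.36 and -1.10 in EGCG_228, EGCG_234 and EGCG_236, and Tpm1 lies at 0.013 in EGCG_236.

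Other stellate cell genes were measured from a list without the 9 genes. Of 36 listed, 27 had a probe and 22 were tested; 1 fell, 0 rose and 21 did not pass, where 0.446% of 9193 named genes fell. The gene that fell was Dcn, the collagen-binding proteoglycan decorin, from log2 10.32 ± 0.19 in the water rats to 9.24 ± 0.19 in the EGCG rats (SD, n = 3 each; difference -1.07, SE 0.17, limma adjusted p = 0.0231). Dcn lost its call without EGCG_228, EGCG_234 or water_227 (adjusted p = 0.0821, 0.133 and 0.0942) and with median scaling (0.103). The metalloproteinase inhibitor Timp1 (-0.87, adjusted p = 0.0615), the fibrillar collagen chain Col1a2 (-0.66, 0.166) and the collagen cross-linking enzyme Lox (-0.82, 0.196) did not pass. Timp1 passed without EGCG_236 (0.0370), under array weights (0.0264) and in the fit with robust variances (0.0404). Pdgfra, a platelet-derived growth factor receptor, differed by -0.19 (adjusted p = 0.751), Gfap by 0.088 (0.828) and Ngfr by 0.063 (0.899). Other genes of the list were higher with EGCG without passing. Among them were Plin2 (0.30, adjusted p = 0.873), Angptl6 (0.28, 0.720), Agtr1a (0.28, 0.699) and Ecm1 (0.27, 0.823). Lower without passing were also Col1a1 (-0.47, limma adjusted p = 0.266), Col3a1 (-0.46, 0.720) and Tcf21 (-0.43, 0.321). At an unadjusted p under 0.05, 7 of the 22 were lower and 0 higher, where 5.27% of all probes were lower. The list's median was -0.12, and 14 of 22 genes were below 0, against 48.7% of all probes.

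Of the smooth muscle contractile list without the 9 genes, 15 of 21 had a probe, 12 were tested and 0 passed in limma (2 lower and 0 higher at an unadjusted p under 0.05). In the same fit 66 of 13514 probes, 0.488%, passed in either direction, and 5.27% were lower at an unadjusted p under 0.05. The non-muscle tropomyosin Tpm4 differed by -0.75 (SE 0.15, limma adjusted p = 0.0755), with groups 0.45 apart, and passed with array weights (0.0332). Tagln2, a transgelin of many non-muscle cells, differed by -0.80 (adjusted p = 0.214), with groups that overlapped slightly. The adhesion molecule Mcam, which vessel walls and endothelium share, differed by -0.19 (adjusted p = 0.646), Synpo2, an actin-bundling protein, by -0.18 (0.694) and the calponin Cnn1 by -0.015 (0.981). These 3 probes were dim, at log2 6.72 and 6.53 for Mcam, 6.93 and 6.75 for Synpo2 and 6.40 and 6.39 for Cnn1 with water and EGCG, so that a change in them could have gone unseen. The list's median was -0.087, and 10 of 12 genes were below 0, against 48.7% of all probes. Some of these differences were near 0, such as those of Cnn1 and Ppp1r14a (-0.0065).

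In the actin cytoskeleton list, 26 of 31 genes had a probe, 25 were tested and 0 passed in limma, with a median of -0.12. At an unadjusted p under 0.05, 4 were lower and 2 higher, where 5.27% of all probes were lower. The LIM-domain proteins Pdlim3 and Pdlim7 differed by -0.53 (limma adjusted p = 0.0917) and -0.44 (0.338; -0.29 without EGCG_236), Fhl2 by -0.37 (0.435; -0.21 without EGCG_234) and the focal adhesion protein Zyx by 0.38 (0.390). Pdlim3 passed with array weights (0.0458). Serum response factor itself, Srf, differed by -0.050 (adjusted p = 0.946). Its coactivator Myocd lay under the dim limit, with non-normalized intensities from 94.8 to 112. Of 10 tested genes of that factor list, 0 passed in limma (0 at an unadjusted p under 0.05), and the median was -0.11. The 4 with the smallest unadjusted p were Ankrd1 (-0.24, adjusted p = 0.497), Rhob (-0.61, 0.702; 0.051 without water_224), Elk3 (-0.14, 0.715) and Rock1 (0.14, 0.796).

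In the intermediate filament list, besides Vim and Des, 0 of 9 tested genes passed in limma. At an unadjusted p under 0.05, 5 were lower, against 5.27% of all probes. The median was -0.35, or -0.20 without water_224. The 4 with the smallest unadjusted p were keratins, filaments of epithelial cells. Krt20 differed by -0.98 (limma adjusted p = 0.0894; 0.0499 with median scaling), the bile duct keratins Krt19 and Krt7 by -1.39 (0.172) and -0.38 (0.227), and Krt8, which hepatocytes and bile ducts share, by -0.35 (0.403).

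For Reln, the related genes are its receptors and their signaling partners, and 0 of 6 tested genes passed in limma. At an unadjusted p under 0.05, 2 were lower, against 5.27% of all probes. The receptor Vldlr, which also binds lipoproteins, stood at log2 6.94 ± 0.24 with water and 6.35 ± 0.27 with EGCG (SD, n = 3 each; difference -0.59, limma adjusted p = 0.165), near the dim limit; with an offset of 16 it was -0.91. Lrp8, the other receptor, differed by -0.052 (adjusted p = 0.960). The integrin chain Itgb1 differed by -0.38 (0.417), Pafah1b1 by -0.36 (0.580; -0.56 to -0.22 with single rats left out) and the adaptor Crkl by -0.075 (0.901). The adaptor Dab1 lay under the dim limit, with non-normalized intensities from 94.5 to 121. Among relatives of Sparcl1, 0 of 6 passed (again 2 lower unadjusted) and the median was -0.41, or -0.21 without water_224. Smoc2 differed by -0.96 (adjusted p = 0.239; 0.0405 without EGCG_236), Fstl1 by -0.49 (0.492; -0.26 without water_237) and Spock2 by -0.34 (0.437; -0.21 without water_224). Sparc differed by -0.47 (0.672), a value that was -0.11 without water_224 and -0.84 without water_227. Myoglobin, Mb, the relative of Cygb tested, differed by 0.10 (adjusted p = 0.820).

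**Figure D4:**
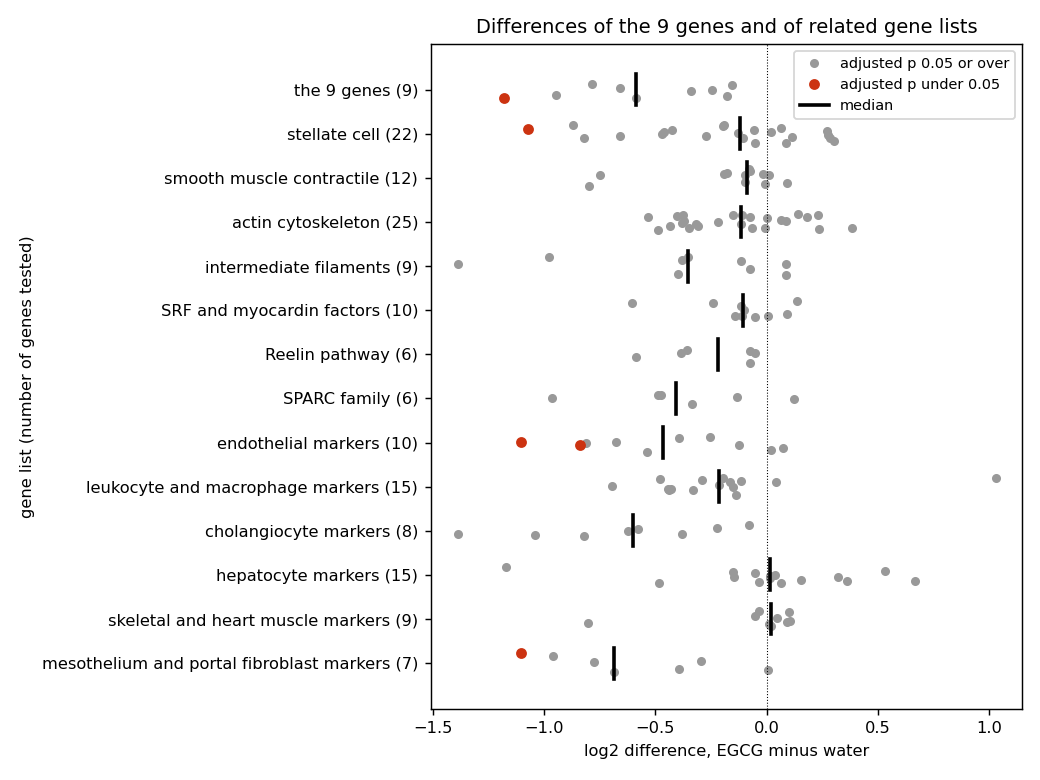
Log2 difference between EGCG and water (x axis) of each gene tested in the 9-gene group and in related lists that leave those 9 out (y axis; red, limma adjusted p under 0.05; grey, not; black bar, median). The 9 genes have a median of -0.59, the stellate cell list -0.12, the endothelial markers -0.47 and the hepatocyte markers 0.015. The medians of the bile duct markers (-0.60) and of the portal fibroblast and mesothelium markers (-0.69) are lower than that of the 9 genes.

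Markers of other cell types were measured beside the 9 genes, and their part in the differences of the 9 genes was not tested. Of 10 endothelial markers tested, 2 fell, where 0.446% of named genes did, and 6 were lower at an unadjusted p under 0.05, against 5.27% of all probes. Their median was -0.47. Cldn5, the claudin of endothelial tight junctions, fell 2.15-fold (log2 difference -1.11, SE 0.13, limma adjusted p = 0.0089), with means of 8.23 ± 0.09 in water rats and 7.12 ± 0.16 in EGCG rats (SD, n = 3 each), and passed with every rat left out in turn. Vwf, von Willebrand factor, fell by 0.84 (adjusted p = 0.0332), and lost its call without any rat except EGCG_236 (0.0781 to 0.130) and with median scaling (0.117). Emcn and Sox18 differed by -0.81 (adjusted p = 0.144) and -0.39 (0.214). Of the 10 markers, 8 were below 0, against 48.7% of all probes. Lyve1 (0.021, adjusted p = 0.982) and Clec14a (0.071, 0.920) were above 0, and Tek (-0.12, 0.831) differed little. The summed normalized intensity of the 11 endothelial probes ran from 3525 to 4553 in water rats and from 2649 to 2788 in EGCG rats. Pecam1 and Kdr had no probe under those symbols, and Cdh5 lay under the dim limit.

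Markers of portal fibroblasts and mesothelium, the other mesenchymal cells of liver and its surface, had a median of -0.69 over 7 tested. Of these 1 fell, against 0.446% of named genes. At an unadjusted p under 0.05, 6 were lower, against 5.27% of all probes. The median was -0.35 with no filter on dim probes, -0.52 without water_237 and -0.94 with an offset of 16. Their 10 probes summed to 1562 to 2137 with water and to 839 to 1056 with EGCG. Fbln1, a matrix glycoprotein and the brightest of the 10, weighs most in these sums. It fell 2.15-fold, from log2 9.85 ± 0.41 to 8.75 ± 0.04 (difference -1.10, limma adjusted p = 0.0412). Fbln1 kept its call only without water_224 when single rats were left out (adjusted p = 0.0510 to 0.156 otherwise), and lost it with the stricter filter (0.0555) and without an intensity trend (0.0567). The mesothelial genes Pdpn (-0.69, adjusted p = 0.0836) and Msln (-0.96, 0.0909) and the microfibril gene Mfap4 (-0.77, 0.239) did not pass. Msln passed without EGCG_236 (0.0393) and with array weights (0.0383).

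Bile duct markers had a median of -0.60, with 0 of 8 past the limma threshold, 5 lower at an unadjusted p under 0.05 (5.27% of all probes) and all 8 below 0 (48.7% of all probes). Their summed intensity ran from 7235 to 9241 with water and from 4549 to 5919 with EGCG. Tspan8 differed by -1.04 (limma adjusted p = 0.0917) and Cd24 by -0.82 (0.249). Krt19 and Krt7, also counted in the intermediate filament list, are among the 8. Of 15 leukocyte and macrophage markers 0 passed (5 lower and 1 higher unadjusted), and their median was -0.21. These probes summed to 12370 to 17142 with water and to 10304 to 12328 with EGCG. Ptprc, the common leukocyte antigen, differed by -0.29 (adjusted p = 0.435; -0.19 without water_237), and Cd14, C1qc and Fcer1g by -0.69 (0.230), -0.48 (0.390) and -0.44 (0.427). Marco, a macrophage scavenger receptor, ran the other way, at 1.03 (0.131), and passed without EGCG_236 (0.0368).

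Hepatocyte markers had a median of 0.015 over 15 tested, and 0 passed in limma (1 lower and 2 higher at an unadjusted p under 0.05). Of all probes, 5.27% were lower at that unadjusted p. The share of all probes that were higher was not computed, here or for the lists above. The hepatocyte marker probes summed to 207633 to 230781 with water and to 202095 to 245019 with EGCG. Quantile normalization gives all arrays the same set of values, which holds sums of the brightest probes partly alike. Alb, for example, took the same value, log2 15.32, in EGCG_236 and water_237. Tat, tyrosine aminotransferase, differed by -1.17 (limma adjusted p = 0.203), or -0.69 without water_224. Ttr differed by 0.53 (0.295), Cyp2e1 by 0.67 (0.457), Asgr1 by 0.36 (0.541; 0.23 without EGCG_234) and Alb by 0.065 (0.951). Without EGCG_236, Ttr (0.71, adjusted p = 0.0405) and Cyp2e1 (1.06, 0.0168) passed. Skeletal and heart muscle markers, which would show muscle in a sample, had a median of 0.021 over 9 tested, with 7 more under the dim limit, and 0 passed (1 lower unadjusted). With the 60th percentile filter only Tnnt2 and Tnnc2 were left, and their median was -0.36. Their probes summed to 637 to 908 with water and to 622 to 785 with EGCG. Tnnt2 differed by -0.80 (adjusted p = 0.246), while Tnni2 (0.10, 0.855), Tnnc2 (0.092, 0.860) and Mb differed little.

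**Figure D5:**
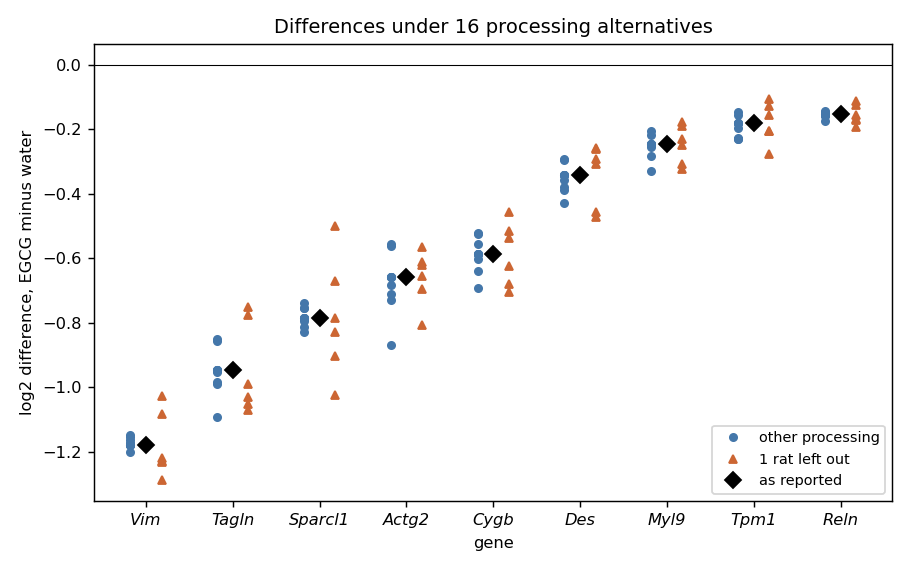
Log2 difference between EGCG and water (y axis) of each of the 9 genes (x axis) as reported (black diamond), under 10 other processing settings (blue circles) and with 1 of the 6 rats left out (orange triangles). All 9 genes stayed below 0 throughout, and Sparcl1 moved from -1.02 to -0.50 as single rats were left out.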

How the data were processed

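Total RNA of 6 livers was hybridized to Illumina bead arrays, 1 per rat, per the labels. The authors deposited non-normalized intensities of 22523 probes on a linear scale (lowest 53.4) and normalized intensities of the same probes, by a method not given in the sources used here. No detection p-value, bead count, slide or scan date was used, so that a batch following the groups could not be tested.

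Non-normalized intensities were background-corrected (limma normexp, offset 50), normalized by quantiles and log2-transformed. This offset makes differences of dim probes smaller. Probes under the 40th percentile of mean intensity (log2 6.39) were left out, which kept 13514 probes and all 9 measured genes. Symbols came from the platform annotation: 13793 probes had 1 symbol, 0 several and 8730 none. The brightest probe stands for a gene, which gave 9193 genes. EGCG minus water was tested with limma 3.58.1 in R 4.3.3 (lmFit, eBayes with an intensity trend, two-sided, no covariates), with Benjamini-Hochberg adjustment over all probes tested. SE and 95% intervals are moderated and not adjusted for multiple tests. The scripts were tested on simulated data.

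The genes and the 14 lists were chosen with earlier results of these data known, so that lists are described by counts and medians, without a test. Named from each list were genes past the threshold, the 4 with the smallest unadjusted p, and a few key genes whatever their value. Some further genes of the stellate cell and endothelial lists were named as well. Summed intensities are normalized, linear and without the offset. Precision is limited by the number of arrays, and exact permutation of 3 against 3 rats has a smallest two-sided p of 0.1. Rats were taken as separate animals from the number in each label. Alternatives covered background correction, its offset, normalization, the filter on dim probes, the model of the variances, array weights, the authors' normalized values and each rat left out. Promoters are from RefSeq (GRCr8).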

Additional observations from a re-analysis of the deposited data

How the results depend on the processing

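All 9 genes kept a difference below 0 under all 16 alternatives. Vim passed under 12 of them, Tagln and Actg2 under 2 each, and the other 6 genes under none. The number of the 9 genes past the threshold (1 as reported) was 3 with array weights and 0 to 2 with single rats left out. Their median of -0.59 ran from -0.66 to -0.46 with single rats left out and was -0.69 with an offset of 16 and -0.52 with the authors' normalized values. Over all probes, 66 passed as reported, 42 without an intensity trend, 172 with array weights and 12 to 186 with single rats left out, the most without EGCG_236. Of genes in the related lists, 4 passed as reported, 8 with array weights and 1 to 9 with single rats left out. Among single genes, 6 that passed under no alternative changed sign, and so did the median of the skeletal and heart muscle list, from 0.021 to -0.36 with the 60th percentile filter. With single rats left out, Alb ran from -0.063 (without EGCG_236) to 0.21, with -0.033 without water_224 and -0.013 without water_227, and Cnn1 from -0.094 to 0.067 (without EGCG_236), with 0.0066 under array weights. Lrp8 ran from -0.20 to 0.18 (without water_227), with 0.0071 without EGCG_234, Rhob from -1.01 to 0.051 (without water_224), Srf from -0.087 to 0.0027 (without EGCG_228) and Tnni2 from -0.024 (without EGCG_236) to 0.21. With the 60th percentile filter only Tnnt2 and Tnnc2 of the muscle list remained, with their own differences unchanged. The cause of the sign changes of single genes was not tested. No paired analysis was possible because the rat numbers of the 2 groups differ. With no detection calls, dim probes cannot be told from background: the non-normalized intensities of Myl9, Tpm1, Des and Actg2 ran from 131 to 259, against array medians of 112 to 120.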
